A study of Mus musculus with 8 samples.

Results

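Csf2, Il3, Lif and Osm encode the cytokines GM-CSF, interleukin-3, leukemia inhibitory factor and oncostatin M, and were followed as a group of 4 genes in T cells cultured with dendritic cells of a graft donor. They were found by annotated symbol among the 16593 genes named on the array, and 7 of the 25697 probes carried one of the 4 symbols. Csf2 and Il3 had 1 probe each, Lif had 3 and Osm had 2.

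The T cells came from the spleen and lymph nodes of male C57BL/6 mice, and total RNA was read on Illumina MouseRef-8 bead arrays. Rejecting mice carried a tail skin graft from BDF1 donors (C57BL/6 x DBA/2), were otherwise untreated and were sampled on day 7. Early tolerant and tolerant mice carried the same kind of graft under a donor-specific transfusion and the anti-CD40L antibody MR-1, and were sampled on days 21 and 100. Naive mice were healthy and ungrafted. T cells of all 4 states were kept for 20 to 21 hours with bone marrow-derived dendritic cells of the donor, and were then sorted into a CD69+ and a CD69- fraction. CD69 is a surface protein that appears soon after antigen contact. Each state and fraction gave 1 array, 8 in all. The sources used here do not give the number of mice per array, and no culture without donor cells was among the arrays.

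GM-CSF and interleukin-3 belong, with interleukin-5, to a family whose receptors pair a private alpha chain with a shared beta chain and signal through JAK2 and STAT5. Mice have a second beta chain, Csf2rb2, that serves interleukin-3. LIF and oncostatin M are close relatives in the interleukin-6 family, and signal through gp130 (Il6st) paired with Lifr or Osmr, mainly to STAT3. Activated T cells are a known source of all 4, GM-CSF drives the growth of myeloid and dendritic cells, and interleukin-3 that of basophils and mast cells. In the mouse, LIF is known to favour regulatory over Th17 cells.

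The genes lie on chromosome 11 as neighbouring couples. In the RefSeq gene order (GRCm38.p6), Il3 is the measured gene next to Csf2, and Osm is the one next to Lif. The RefSeq promoter table held 3 of the 4 genes. The 250 bases before each start site are shown for Csf2, Il3 and Lif, the members with the largest rises in CD69+ cells. They lie at chr11:54249900-54250149 (minus strand) for Csf2, chr11:54267280-54267529 (minus strand) for Il3 and chr11:4257318-4257567 (plus strand) for Lif. They are written 5′ to 3′ on the gene's own strand, with capitals marking matches to 5 searched motifs on either strand.
Csf2: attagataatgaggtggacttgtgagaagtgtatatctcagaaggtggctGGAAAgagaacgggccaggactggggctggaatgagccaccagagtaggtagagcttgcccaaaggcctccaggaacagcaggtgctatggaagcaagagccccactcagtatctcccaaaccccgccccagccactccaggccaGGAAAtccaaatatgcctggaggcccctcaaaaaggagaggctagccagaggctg
Il3: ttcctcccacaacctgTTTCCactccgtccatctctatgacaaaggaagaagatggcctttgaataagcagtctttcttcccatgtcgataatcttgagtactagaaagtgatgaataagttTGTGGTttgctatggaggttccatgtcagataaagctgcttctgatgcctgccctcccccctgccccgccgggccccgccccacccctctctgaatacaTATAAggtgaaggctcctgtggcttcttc
Lif: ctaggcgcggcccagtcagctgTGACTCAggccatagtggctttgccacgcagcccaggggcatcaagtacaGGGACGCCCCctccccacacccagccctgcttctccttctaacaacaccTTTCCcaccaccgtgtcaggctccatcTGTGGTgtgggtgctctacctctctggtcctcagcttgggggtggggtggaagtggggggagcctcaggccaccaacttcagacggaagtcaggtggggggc

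The motif GGAAA, the core bound by NFAT factors that carry the calcium signal of the antigen receptor, was in all 3 windows, at positions -200 and -55 of Csf2, -234 of Il3 and -129 of Lif, counted back from the start site. It is a short word, found in 55.6% of 32851 RefSeq windows of this length. The AP-1 word TGANTCA (6.75% of windows) was in the Lif window at -228, and the NF-kB consensus (7.25% of windows) at -178 of the same gene, where it reads as a match on each strand. The RUNX word TGTGGT (14.0% of windows) was at -128 of Il3 and -102 of Lif. TATAA (22.8% of windows) was at -29 of Il3. None of these words overlapped another in the 3 windows, and a match is a description of the sequence, with no factor binding measured here.

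Between 9593 and 10308 probes were detected per array (detection p under 0.01, where p is set against the array's negative controls), which was 37.3% to 40.1% of the probes. The T cell markers fit the label: 7 of 8 listed genes were on the array, among them Cd3d, Cd3e and Cd2, and all 7 were detected on every array. Their summed normalized signal ranged from 70588 to 84666 on the CD69+ arrays and from 101841 to 109289 on the CD69- arrays. Of 18 measured dendritic and myeloid markers, 13 to 16 were detected on the CD69+ arrays, and Itgax and Itgam on none. The B cell markers Cd79a, Ms4a1 and Pax5 and the mast cell or basophil markers Cpa3, Mcpt8, Fcer1a, Ms4a2 and Cma1 were not detected on any array. Of the same lists, Cd79b was detected on every array, and Hdc on 4 CD69- arrays and 1 CD69+ array. Among granulocyte markers, S100a8 was detected on every array, S100a9 and Mmp9 on some, and Ngp and Ltf on none.

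The first comparison asked how the cytokine genes differed between the fractions sorted from each culture. All 4 rose in the CD69+ fraction in limma over the 4 states, against a background of 35.2% of 7403 tested genes that were called higher (38% were called lower and 73.3% in either direction). Csf2, Il3 and Lif were at or near background in CD69- cells and well above it in CD69+ cells, while Osm had a small difference on top of a clear signal in CD69- cells. A gene that is detected only in the CD69+ fraction had to differ to enter the test, which holds for Il3 and Lif. Csf2, detected on 1 CD69- array where at least 2 arrays were needed, also entered through its CD69+ arrays. The count of 4 is thus no support by itself.

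Csf2 had non-normalized intensities of 3159 in naive, 1216 in rejecting, 3465 in early tolerant and 2895 in tolerant CD69+ cells. Its intensities in the CD69- cells of the same states were 137, 128, 159 and 147, and only the early tolerant one was detected, with a detection value of 0.00251. The lowest CD69+ intensity was 1216 and the highest CD69- intensity 159. How many other genes were apart in this way was not counted. The fitted log2 difference in normalized signal was 4.94 (SE 0.19, 4 pairs, limma adjusted p = 8.97e-06), with 1 of the 4 CD69- arrays above detection. By state the CD69+ cells were at least 31.2-fold higher in naive, at least 12.6-fold in rejecting, 35.3-fold in early tolerant and at least 33.6-fold in tolerant mice. "At least" is written where the CD69- array did not detect the probe. The fold is then taken against the lowest detected signal of that array, or against the signal of the probe itself where that is the larger.

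Il3 had intensities of 1054 in naive, 689.9 in rejecting, 519 in early tolerant and 507 in tolerant CD69+ cells. On the CD69- arrays, in the same order, it read 86.5, 81.5, 83.1 and 77.5, and it was not detected on any of them (detection p of 0.639 to 0.896). The gene was thus at background in the CD69- fraction of every state and detected in the CD69+ fraction of every state. The rise of Il3 was at least 6.70-fold (fitted log2 difference 4.35, SE 0.16, limma adjusted p = 8.97e-06). The bound was at least 10.1-fold in naive, 6.77-fold in rejecting, 6.09-fold in early tolerant and 4.84-fold in tolerant mice.

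Lif, on its brightest probe, had intensities of 1665 in naive, 898 in rejecting, 472 in early tolerant and 381 in tolerant CD69+ cells. The CD69- arrays read 127, 112, 104 and 101 and did not detect it. As for Il3, all of the detected signal was in CD69+ cells, but the CD69+ arrays were more spread, over 2.23 log2 units of normalized signal. Lif was at least 7.21-fold higher in the CD69+ fraction (fitted log2 difference 3.84, SE 0.26, limma adjusted p = 2.76e-05), from at least 16.2-fold in naive to at least 3.38-fold in tolerant mice. A second probe gave at least 6.49-fold. The remaining, dim probe gave at least 1.19-fold and did not detect Lif in tolerant CD69+ cells. Over the 8 arrays the normalized values of the 3 probes had correlations of 0.94 to 1.00.

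Osm, on its brightest probe, had intensities of 5027 in naive, 3211 in rejecting, 2442 in early tolerant and 2427 in tolerant CD69+ cells, and of 2040.5, 1938, 1449 and 1807 in CD69- cells. Here CD69- cells carried a clear signal, and normalized it spanned only 0.19 log2 units over the 4 CD69- arrays against 0.84 over the CD69+ arrays. Osm rose by 0.52 (SE 0.14, limma adjusted p = 0.0147), a 1.43-fold difference, higher in 4 of 4 pairs. Without the naive pair the difference was 0.38 (limma adjusted p = 0.0546), past the threshold of 0.05, and with the other pairs left out in turn the adjusted p was 0.00638 to 0.0461. The log2 difference was 0.95 in naive, 0.50 in rejecting, 0.52 in early tolerant and 0.12 in tolerant mice. The second, dimmer Osm probe had differences of 1.81, 0.71, 0.68 and -0.04 in the same states, so it was higher in CD69+ cells in 3 of 4 pairs. By the 1.5-fold limit, all 4 genes were higher in the CD69+ fraction of naive mice, where 28.7% of all tested genes were. In the other states Csf2, Il3 and Lif were, against 26.4% of all genes in rejecting, 27.9% in early tolerant and 29% in tolerant mice.

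**Figure D1:**
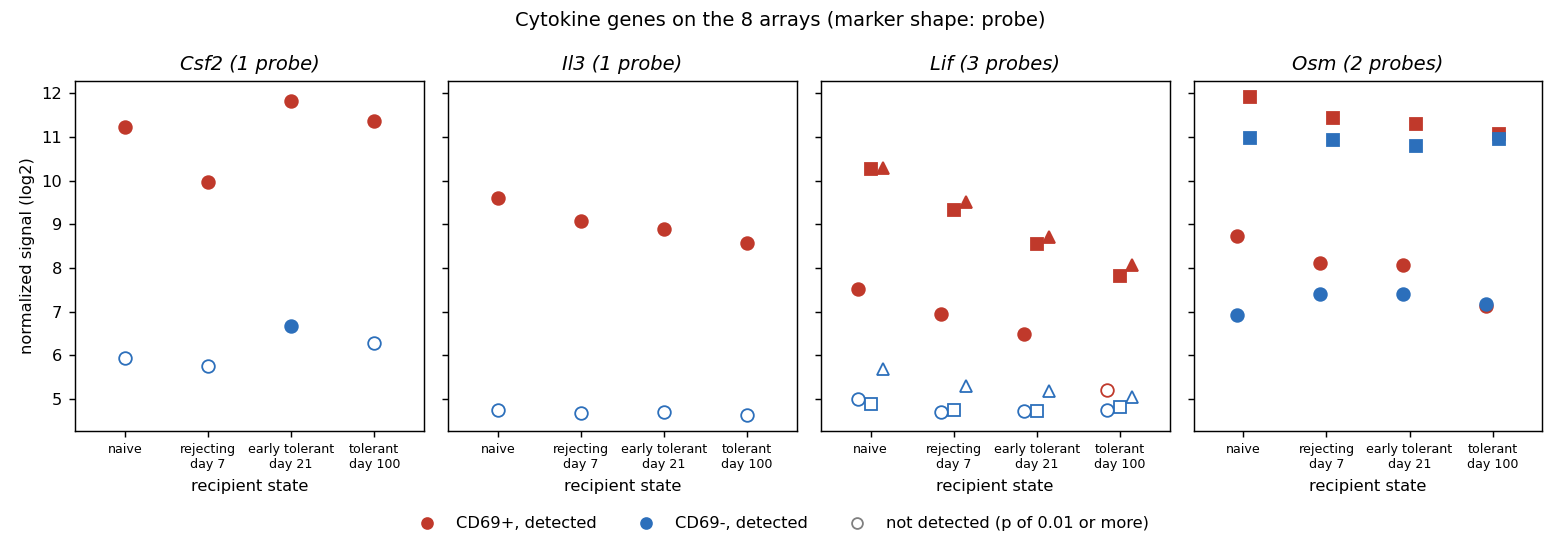
Normalized signal (log2) of every probe of Csf2, Il3, Lif and Osm (marker shape) by recipient state, with CD69+ cells in red, CD69- cells in blue and 1 array per point. Open points were not detected: Il3 and Lif lack a filled blue point, Csf2 has 1 in early tolerant mice, and Osm is detected on all 8 arrays.

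Signal in CD69+ cells moved with markers of other cells in the same contrast. Of 16 tested dendritic and myeloid markers, the 14 that were detected in both fractions all rose in CD69+ cells. The others, Ccl22 and Tyrobp, were not detected in CD69- cells. The bound of Ccl22 was -0.34, so a rise of Ccl22 over the 4 states could not be shown. The median log2 difference of the 16 was 2.23 against -0.04 over all 7403 genes. T cell markers moved the other way, with 4 of 7 lower and 1 higher, and Cd3d fell by 1.14. Among the dendritic and myeloid markers the class II chain gene H2-Ab1 rose by 2.42 and the costimulatory gene Cd40 by 3.25. Summed, they ranged from 9321 to 58191 in normalized signal on CD69+ arrays and from 5225 to 11206 on CD69- arrays, and the part of these cells in the cytokine differences was not tested. In bulk RNA, fewer cells that express a gene and less RNA per cell cannot be told apart.

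The second question was how the cytokine genes of CD69+ cells differed between recipient states. With 1 array per state there is no replicate, so sizes are given without a test, and comparisons against naive cells share the naive array. Il3, Lif and Osm followed one order, highest in naive, then rejecting, then early tolerant, and lowest in tolerant CD69+ cells. Csf2 had another order, highest in early tolerant, then tolerant and naive, and lowest in rejecting cells.

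Lif had the widest range. On the normalized scale its CD69+ values were 10.30 in naive, 9.51 in rejecting, 8.71 in early tolerant and 8.06 in tolerant cells. Tolerant cells were thus 4.71-fold below naive cells, and early tolerant cells 3.01-fold below. Rejecting cells were 1.72-fold below naive and 2.74-fold above tolerant cells. The second probe of Lif had the same order, with tolerant cells 5.47-fold below naive, and on the dim probe they were at least 2.66-fold below.

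Il3 had normalized values of 9.61, 9.08, 8.89 and 8.58 in naive, rejecting, early tolerant and tolerant CD69+ cells. The steps were small. Tolerant cells were 2.05-fold below naive, early tolerant cells 1.65-fold and rejecting cells 1.45-fold. Rejecting and early tolerant cells were 0.19 log2 units apart, and no replicate gives an error for a step of this size.

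Osm had normalized values of 11.92, 11.44, 11.30 and 11.08 in the same order of states. Tolerant CD69+ cells were 1.80-fold below naive, early tolerant cells 1.53-fold and rejecting cells 1.39-fold. On the second probe the differences were larger, at 3.05-fold, 1.58-fold and 1.53-fold. Rejecting and early tolerant cells were 0.14 log2 units apart, again with no replicate to give an error. In CD69- cells the differences from naive were -0.19 to -0.01 on the brighter probe and 0.25 to 0.49 on the dimmer one.

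Csf2 had normalized values of 11.24 in naive, 9.97 in rejecting, 11.82 in early tolerant and 11.37 in tolerant CD69+ cells. Rejecting cells stood apart from the other 3 states. They were 2.41-fold below naive, 2.64-fold below tolerant and 3.61-fold below early tolerant cells. Early tolerant cells were 1.4955-fold above naive, just inside the limit of 1.5-fold. Tolerant and naive cells were 0.13 log2 units apart, a small difference that also has no error. With median scaling, the log2 difference from naive was 0.24 in early tolerant cells, in place of 0.58, and -0.07 in tolerant cells, while early tolerant stayed highest and rejecting lowest. In CD69- cells Csf2 was detected in early tolerant mice alone, at least 1.32-fold above naive CD69- cells. Tolerant CD69- cells missed the detection limit of 0.01 narrowly, with a detection p of 0.01003.

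**Figure D2:**
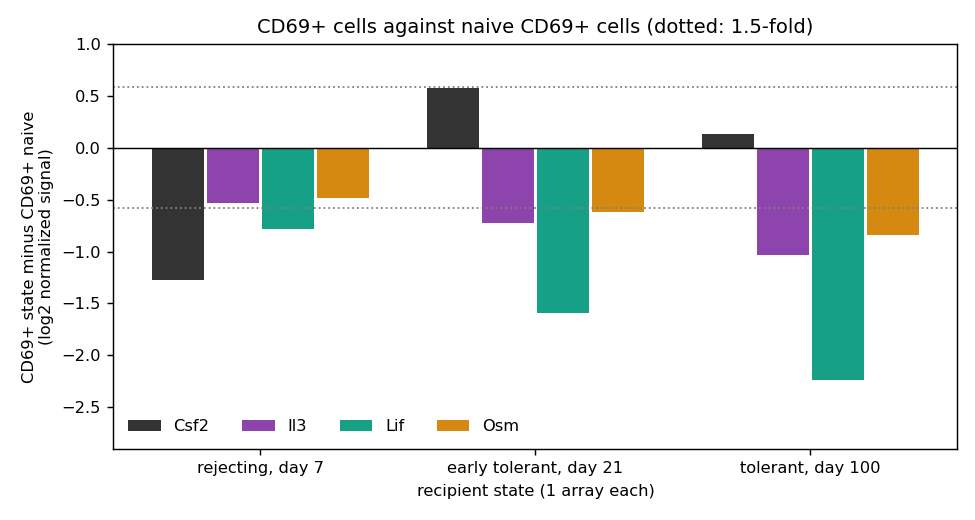
Log2 difference of normalized signal between CD69+ cells of each grafted state and naive CD69+ cells, on the brightest probe of each gene, with 1 array per state and dotted lines at 1.5-fold. Bars of Il3, Lif and Osm lie below 0 in all 3 states, while Csf2 is at -1.27 in rejecting and at 0.58 and 0.13 in early tolerant and tolerant cells, the last being -0.07 with median scaling.

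Counted by the 1.5-fold limit against naive CD69+ cells, 2 of the 4 genes (Csf2 and Lif) were lower in rejecting cells, where 5.81% of all tested genes were lower and 6.59% higher. With median scaling all 4 were lower there, Il3 at -0.63 and Osm at -0.62. In early tolerant cells 3 of 4 (Il3, Lif and Osm) were lower, against 3.31% of all genes lower and 4.69% higher. In tolerant cells the same 3 were lower, against 4.48% lower and 6.7% higher. None of the 4 was higher by that limit in any state. Between rejecting and tolerant cells Lif was higher and Csf2 lower (7.39% and 8.16% of all genes). The same held between rejecting and early tolerant cells (6.89% and 6.78%). Between early tolerant and tolerant cells Lif was higher (4.24% of all genes were higher and 4.96% lower).

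Markers of dendritic and myeloid cells differed between the same arrays. Their summed normalized signal in CD69+ cells was 17842 in naive, 9321 in rejecting, 43916 in early tolerant and 58191 in tolerant mice. It was 6523, 5225, 8567 and 11206 in CD69- cells. Like Csf2 it was lowest in rejecting cells, but it was highest in tolerant cells, where Lif, Il3 and Osm were lowest. The genes of this list did not all follow the sum. Lyz2, Cst3 and Cd74 did, with normalized log2 values of 13.98, 13.72 and 13.18 in tolerant CD69+ cells. Cd80 was highest in rejecting CD69+ cells (9.48), and Cd40 and Ccl17 were highest in early tolerant ones (10.18 and 11.58). The summed T cell markers were 70588, 84666, 74429 and 81402 in CD69+ cells of the 4 states in the same order. Summed NK cell markers were 6606, 12921, 5307 and 3551, but the genes of that list did not move together. Nkg7 and Klrd1 were highest in rejecting CD69+ cells (normalized log2 values 13.35 and 10.87), while Eomes was lowest there (8.95). Ncr1 was not detected on any array and Klrb1c on 1. The part of these cells in the state differences was not tested.

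**Figure D3:**
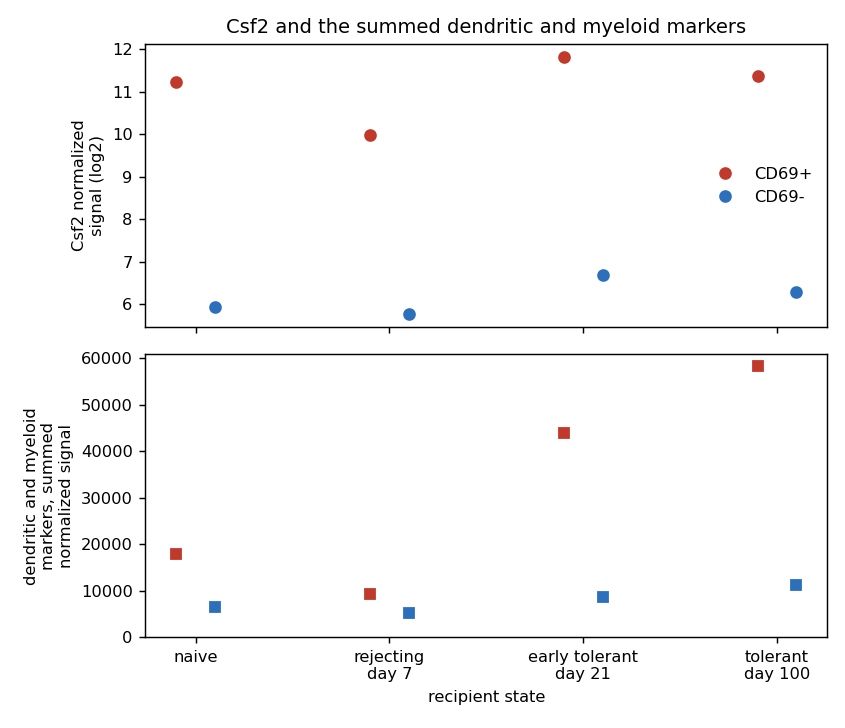
Normalized Csf2 signal (log2, top) and the summed normalized signal of 18 dendritic and myeloid markers (linear, bottom) on the 8 arrays, with CD69+ cells in red and CD69- cells in blue. In CD69+ cells both are lowest in rejecting mice, while Csf2 is highest in early tolerant mice and the marker sum in tolerant mice. Single markers can differ from the sum: Cd80 is highest in rejecting CD69+ cells.

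The study's own criteria for candidate genes were applied to the 4 genes on the deposited normalized values. A tolerance candidate had to be at least 1.5-fold higher in tolerant than naive CD69+ cells, at least 1.5-fold higher in CD69+ than CD69- cells of tolerant mice, and at 500 or more. A rejection candidate had to meet the same limits in rejecting cells, with tolerant CD69+ cells as the reference. None of the 4 genes met the tolerance criteria, which 0.609% of 16593 genes met (101 genes). Csf2 came closest in level, with a value of 2730.1 in tolerant CD69+ cells that was past the limit over CD69- cells, where it was not detected, but 1.09-fold above naive cells. Lif met the rejection criteria on 2 of its 3 probes, as did 104 genes in all (0.627%). Its brightest probe read 809.7 in rejecting CD69+ cells, 2.34-fold above tolerant CD69+ cells, and was past the limit over rejecting CD69- cells, where it was not detected. Il3 missed them at 1.34-fold above tolerant cells, and Csf2 at 0.397 of the tolerant value. The brighter Osm probe missed both fold limits, at 1.28-fold above tolerant CD69+ and 1.40-fold above rejecting CD69- cells. The dimmer Osm probe passed the first (1.63-fold) and missed the second (1.43-fold) and the level (357). The dim Lif probe missed the level, at 202.

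Of the receptor chain genes of the 4 cytokines, only Il6st was detected on all 8 arrays. In the beta-common family, 3 of 6 genes were tested, and all 3 were called higher (median log2 difference 1.09, or 0.27 with bounds, against -0.04 over all genes). None of the 3 was detected in CD69- cells, so each entered the test through CD69+ cells and had to differ, and the count is no support. The interleukin-3 receptor alpha chain gene Il3ra rose at least 1.21-fold (fitted 0.80, SE 0.14, limma adjusted p = 0.00171). The GM-CSF receptor alpha chain gene Csf2ra was detected in early tolerant and tolerant CD69+ cells only. Its lower bound over the 4 states, 1.00-fold, could not show a difference. The shared beta chain gene Csf2rb was not detected on any array, and Csf2rb2 on 1, in tolerant CD69+ cells. Il5, the other cytokine of the family, was detected in early tolerant and tolerant CD69+ cells, with normalized values of 7.66 and 7.23 against 5.55 in naive and 5.83 in rejecting cells. Csf2ra, Csf2rb2 and Il5 were thus detected on the 2 CD69+ arrays, or 1 of them, with the most dendritic and myeloid marker signal. These are also the CD69+ arrays of mice given the transfusion and MR-1, so marker signal and treatment cannot be told apart here. The part of dendritic and myeloid cells in these 3 genes was not tested.

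Among gp130 receptors, 2 of 4 tested fell and none rose (median -0.62). Il6st, the shared gp130 chain through which LIF and oncostatin M signal, fell by 1.07 (SE 0.17, limma adjusted p = 0.00124). Il6ra, the private receptor chain for interleukin-6, fell by 3.33. Lifr was not detected on any array, and Osmr, detected on 2, had a difference of -0.17 (adjusted p = 0.161). Of the other ligands of that family, Ebi3, a subunit of heterodimeric cytokines, rose by 3.73, and Clcf1 fell by 2.22. Il6, Il11, Ctf1, Cntf and Il27 were not detected on any array, nor were Csf1 and Csf3, which encode the other colony-stimulating factors.

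Signalling genes downstream of the receptors were split. Of 6 tested JAK-STAT genes, 2 rose and 1 fell (median 0.06): Stat5a rose by 1.61 and Tyk2 by 0.37, and Jak1 fell by 1.63. Jak2 had a difference of 0.03 and Stat3 of -0.13, with adjusted p of 0.792 and 0.382. Of 6 feedback inhibitors, 3 rose and 1 fell (median 0.54). Cish and Socs2, known targets of STAT5, rose by 2.86 and 2.47 and the phosphatase gene Ptpn6 by 1.05. Socs3, a target of STAT3 that binds gp130, fell by 2.09.

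Of 8 genes listed as targets of STAT3 and STAT5, 6 rose and 2 fell (median 0.70). The survival gene Bcl2l1 rose by 4.35, Myc by 1.85 and the cyclin gene Ccnd2 by 1.75, while the survival gene Mcl1 fell by 1.26 and the kinase gene Pim2 by 1.14. Other cytokines act through the same STATs, and which cytokine bears on these genes was not tested.

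Regulators of cytokine transcription were also split, with 4 of 10 tested higher and 5 lower (median -0.33). Irf4, an antigen receptor-induced transcription factor, rose by 4.24 and Bhlhe40, a factor known in the mouse for its part in GM-CSF production, by 1.54. The NF-kB subunit gene Rel, not detected in CD69- cells, was at least 2.06-fold higher. Fos, Nfatc1 and Ets1 fell by 1.73, 1.29 and 1.21. Bhlhe40 had normalized values of 12.56 to 12.72 on the 4 CD69+ arrays. Irf4 had 11.29 in naive, 11.74 in rejecting, 10.48 in early tolerant and 10.64 in tolerant cells, so neither followed the order of Csf2. In the same order of states, Rel had 7.37, 7.08, 7.31 and 7.59. Batf, the remaining called rise (1.41), had 11.81, 11.43, 12.19 and 12.54. Both were lowest in rejecting cells, as Csf2 was, but highest in tolerant cells.

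The messages of these cytokines carry AU-rich elements that decay factors bind. Of 6 tested genes of that machinery, 2 rose and 3 fell (median -0.33). Zfp36, which encodes tristetraprolin, a factor that destabilizes Csf2 mRNA, fell by 2.42 (SE 0.17, limma adjusted p = 2.97e-05), with normalized values of 10.38 to 10.84 on the CD69+ arrays and 12.84 to 13.36 on the CD69- arrays. Zfp36l1 fell by 0.67 and Rc3h1 by 0.65. Khsrp, another decay factor, rose by 1.22 and the stabilizing factor Elavl1 by 0.34.

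**Figure D4:**
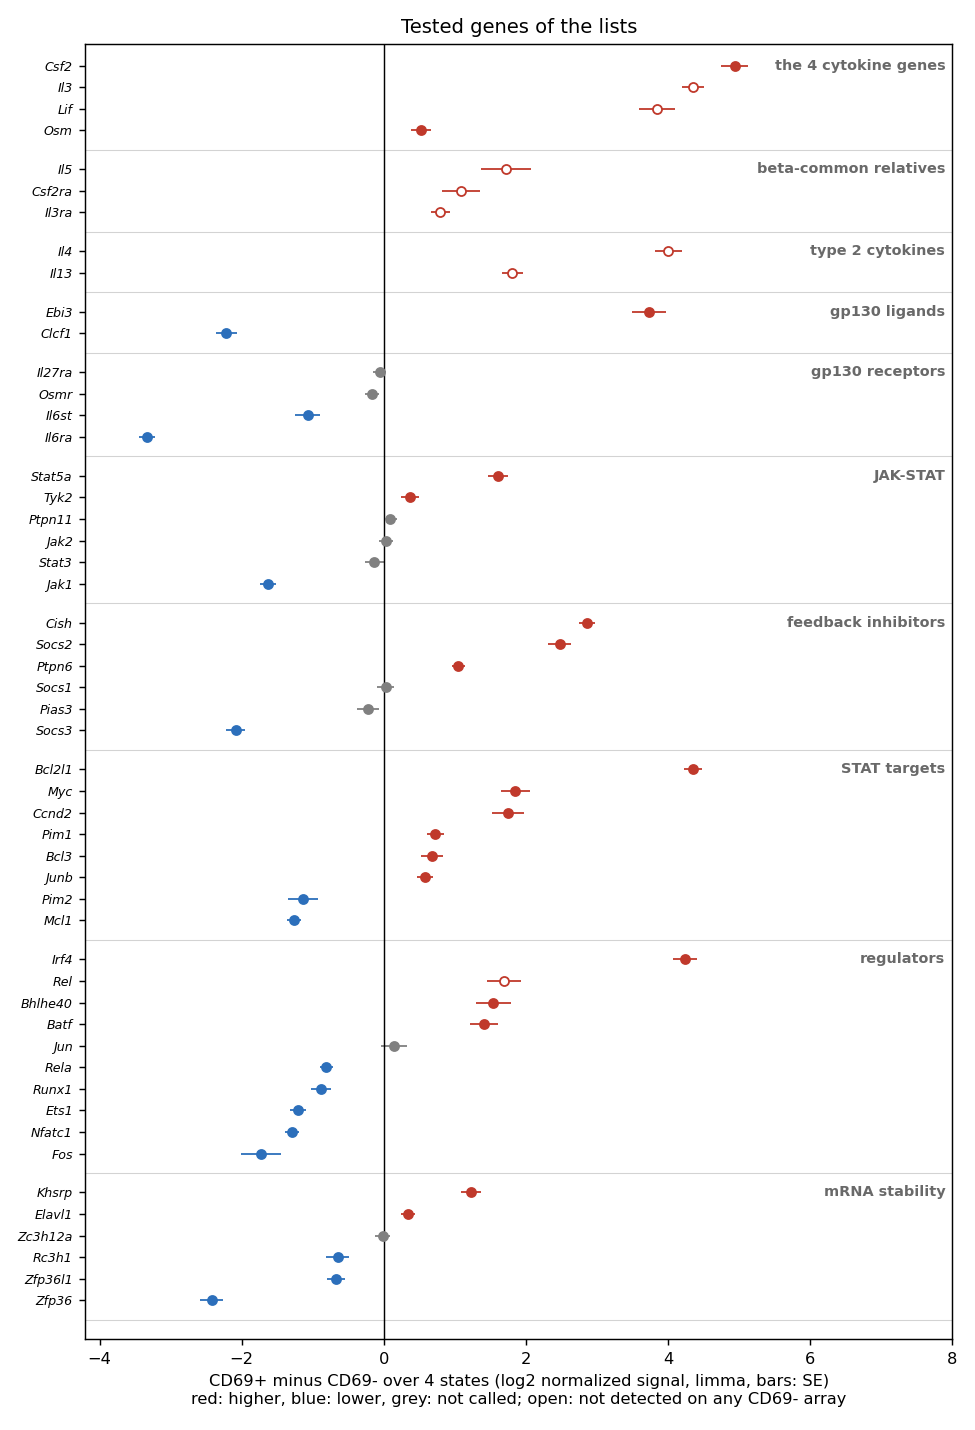
Log2 difference of normalized signal, CD69+ minus CD69- cells over 4 states, for the tested genes of each list (bars: SE from limma). Open points were not detected on any CD69- array, so their place depends on background values: Il3 and Lif are drawn at 4.35 and 3.84 with bounds of 2.74 and 2.85. Csf2 (4.94) was detected on 1 CD69- array and Osm (0.52) on all. The tested gp130 receptors lie below 0, and JAK-STAT genes and regulators on either side of 0.

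Genes beside the cytokine genes on chromosome 11 differed in direction. Of the 3 measured genes on each side of Csf2, Il3 rose, Pdlim4 and Fnip1 fell by 0.63 and 0.81, and P4ha2 had a difference of -0.09 (limma adjusted p = 0.723). Slc22a4 and Acsl6, the latter beside Il3, were not detected on any array, and Rapgef6 beyond Fnip1 fell by 1.81. Around Osm and Lif, Castor1 fell by 0.85 and Mtmr3 by 0.31, Tbc1d10a had a difference of 0.03, Hormad2 was not detected, and Ascc2 and Sf3a1 rose by 0.96 and 1.35. Il4 and Il13, type 2 cytokine genes of the same chromosomal cluster as Csf2 and Il3, were at least 8.62-fold and 2.64-fold higher in CD69+ cells, and were not detected in CD69- cells. Il4 did not follow the order of Il3 between states, with normalized CD69+ values of 9.51 in naive, 9.53 in rejecting, 9.54 in early tolerant and 9.04 in tolerant cells.

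The 4 cytokine genes were compared with all 1329 tested genes whose normalized values spanned at least 2 log2 units over the 8 arrays. The measure was Pearson's correlation over the 8 arrays, which share their fraction and state and are no independent samples, so it is a description. The genes most like Csf2 were the mitochondrial citrate carrier gene Slc25a1 (r = 0.998), the sterol synthesis genes Hsd17b7 and Fdps (0.996 and 0.995) and the tubulin gene Tuba4a (0.995). These were also lowest in rejecting among the CD69+ arrays, Slc25a1 with 9.45 against 9.98 to 10.07. Il3 was most like Iars, which encodes a tRNA synthetase, Prmt1, an arginine methyltransferase gene, the chemokine gene Ccl1 and the histone gene H3c1 (0.999 to 0.997). Lif was most like the interleukin-12 receptor gene Il12rb1 (0.991), Zfp428, Rpp25 and Rmdn3 (0.987 for the last). Osm was most like the ubiquitin-like gene Ubd (0.944), the nuclear receptor gene Nr4a3 (0.939), the Th1 factor gene Tbx21 (0.936) and the cytokine gene Il24 (0.927). Among themselves, Il3 and Lif had a correlation of 0.981, Csf2 and Il3 of 0.964, and Csf2 and Osm of 0.708. All these correlations take in the difference between fractions. Csf2 and Il3 differed in their order of states in CD69+ cells.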

How the data were processed

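RNA of 8 sorted T cell samples was read on Illumina MouseRef-8 arrays. Per the submitters' processing notes, BeadStudio 3.1.3 was used. The deposited non-normalized table holds a mean bead intensity and a detection p-value for each probe, per the file headers. The deposited normalized values are an intensity on a linear scale. All 8 columns have a median of 113 and the same sorted values, to within a relative gap of 0.000827, and these equal the averages of the sorted raw columns. This shows quantile normalization without centring, and no source used here names the method. The identifiers printed in the non-normalized table are out of register: all 25697 probes were matched to the normalized table through their ranks on the 8 arrays, and 20106 carried another identifier. Under the printed identifiers the row of Csf2 is named Csf2rb, and the T cell gene Cd3d would have a mean intensity of 778 in place of 24743. Symbols came from GEO's platform annotation, updated through Entrez identifiers in RefSeq.

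Intensities were background-corrected through the detection p-values, quantile-normalized and log2-transformed (neqc, offset 16, limma 3.58.1, R 4.3.3), and the added offset by itself makes folds of dim genes smaller. Each gene was taken on its brightest probe, and 7403 genes with detection p under 0.01 on at least 2 arrays were tested. Fractions were compared with lmFit and eBayes, 2-sided, with recipient state as a block and Benjamini-Hochberg adjustment over 7403 genes at 0.05. The pairing comes from the labels, by which each state's T cells were cultured and then split. Deviations of paired arrays correlated by 0.209 to 0.345. The 4 states stand in for replicates, so p-values measure how steady a difference was over them. Precision is limited by the number of arrays. The sorting text of the labels writes both fractions as CD69+, so fractions were taken from titles. The 4 genes, the lists and the tests were chosen with earlier results of these data known. Besides the 4 genes, the text names the receptors of the cytokines, up to 3 called rises and falls per list, 3 measured neighbours on each side and the 4 most correlated genes. Further genes named for their values (Rc3h1, Elavl1, Il5, Csf2rb2, Batf, Lyz2, Cst3, Cd74, Ccl17, Il11, Cntf and others listed as not detected) were added afterwards, as were the searched motifs. RefSeq sequences are of GRCm38.p6.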

Additional observations from a re-analysis of the deposited data

Results flagged for a closer look

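The dimmer of the 2 Osm probes had a CD69+ minus CD69- difference of -0.0443 (log2) in tolerant mice, opposite in sign to the 0.68 to 1.81 of the other 3 states. The difference between states was not tested, since each state has 1 pair of arrays. The brighter Osm probe had 0.12 in tolerant mice.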

How the results depend on the processing

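Under 13 alternatives, Csf2, Il3 and Lif kept their rise in CD69+ cells and its call, with log2 differences of 3.78 to 5.16, 2.66 to 4.49 and 2.38 to 4.13, and adjusted p of at most 0.000246. Osm had 0.38 to 0.66 (limma adjusted p of 0.00523 to 0.0546) and lost its call only without the naive pair, at 0.38. With each pair left out in turn, Csf2 had 4.78 to 5.16, Il3 4.14 to 4.49, Lif 3.54 to 4.13 and Osm 0.38 to 0.66. Dropping recipient state as a block cannot change the differences, as each state has 1 array of each fraction. The limma adjusted p was then 3.01e-06 for Csf2, 2.59e-07 for Il3, 2.71e-05 for Lif and 0.0181 for Osm. With 5307 genes called in place of 5423, the block changed no call on the 4 genes. Another filter on detection or a trend in eBayes likewise cannot change a difference, only its adjusted p.

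The order of states held in 8 of 8 settings for Il3, Lif and Osm and in 7 of 8 for Csf2. The 8 settings include the main one. Those that change only the filter on detection cannot move a member's values. Nor can the mean of probes for Csf2 and Il3, which have 1 probe each. Against naive CD69+ cells, median scaling moved early tolerant Il3 to -1.04 and Osm to -0.96, while the median of all genes moved to -0.28 there and Csf2 from 0.58 to 0.24. It raised the members at least 1.5-fold lower in rejecting cells from 2 to 4 of 4, and no other setting moved the counts of members. The mean of both probes gave -1.23 for Osm in tolerant cells. The numbers of genes at least 1.5-fold higher and lower than naive were 488 and 430 in rejecting, 347 and 245 in early tolerant and 496 and 332 in tolerant cells. Without background correction they were 282 and 207, 187 and 75, and 286 and 161. On the deposited normalized values they were 267 and 187, 165 and 65, and 258 and 139. An offset of 50 gave 283, 133 and 220 lower genes. Median scaling gave 215 higher and 968 lower in early tolerant and 499 lower in tolerant cells, and turned the fraction calls to 2961 higher and 2374 lower from 2607 and 2816. The cause was not tested. Dim probes limit what can be seen: in CD69- cells Il3 and Lif have only an upper bound. With 1 array per group, no difference between states has an error.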
